A study of Homo sapiens with 8 samples.

Results

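DNA replication and the G1/S transition were followed through 49 genes, chosen as a list of the factors that license and fire origins, copy DNA, supply nucleotides and control entry into S phase. All 49 had a probe set that names a single gene, and they stand within 19775 genes measured on the same arrays. Where a gene had several single-symbol probe sets, the brightest on average over the 8 arrays was read. That mean is the only measured value in the rule, but the list was chosen with earlier results of these data known. Counts of its members are therefore no independent evidence.

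The arrays held total RNA from 2 breast cancer cell lines, with 4 groups of line and hairpin and 2 arrays per group. The groups were MDA-MB-231 with shXBP1, MDA-MB-231 with shCtrl, T47D with shXBP1 and T47D with shCtrl. MDA-MB-231 is a triple-negative line with mesenchymal features, and T47D is a luminal, oestrogen receptor-positive line. Cells had been infected with lentivirus carrying a short hairpin RNA against XBP1 (shXBP1) or a control hairpin (shCtrl) and kept under puromycin. XBP1 switches on genes of the unfolded protein response, the programme that cells start when folding fails in the endoplasmic reticulum. Every group, shCtrl included, had been held for 24 h without glucose at 0.1% O2. The untreated conditions were not analysed here, so each comparison is between cells under this combined stress. The labels call the replicates biological but do not say whether the replicates were separate infections. The labels also give no hairpin sequence and do not say how many hairpins shXBP1 stands for. A p-value therefore reflects the spread of 2 arrays per group, and whether that spread includes variation between infections is not known.

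In G1 the origin recognition complex, CDC6 and CDT1 load the MCM2-7 helicase, and in S phase the kinase CDC7 with its partner DBF4, together with CDC45 and GINS, turns the loaded helicase into a moving fork. Polymerase alpha with primase starts each strand, the clamp loader RFC places the sliding clamp PCNA, and polymerases delta and epsilon extend it while ribonucleotide reductase and thymidylate synthase supply deoxynucleotides. Many of these genes are transcribed by E2F factors once RB is phosphorylated, so in growing cells their mRNAs are typical of late G1 and S phase.

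Values are log2 expression levels as the authors deposited them, after background correction, quantile normalization and probe summary by RMA. Every member's mean was above the median of all probe sets, 5.9, in each of the 4 groups, with group means between 6.2 and 13.51. In MDA-MB-231 XBP1 itself fell by 3.85 on the log2 scale (adjusted p = 6.93e-05), with 7.13 and 6.69 on the shXBP1 arrays and 10.83 and 10.69 on the shCtrl arrays. In T47D it fell by 5.15 (adjusted p = 8.68e-06), with 7.52 and 7.16 on the shXBP1 arrays and 12.41 and 12.56 on the shCtrl arrays. Of 10 mesenchymal markers, 10 were higher in MDA-MB-231 shCtrl than in T47D shCtrl, where 23.7% of all genes tested were higher. Of 10 luminal markers 10 were lower, where 25.2% of all genes were. The difference between the 3′ and 5′ control probe sets of ACTB, a sign of RNA quality, was 0.89 and 1.10 on the MDA-MB-231 shXBP1 arrays against 1.3 and 1.21 on the shCtrl arrays. In T47D it was 0.97 and 1.26 on the shXBP1 arrays and 1.03 and 0.97 on the shCtrl arrays. For GAPDH the same difference in MDA-MB-231 was 0.3 and 0.32 with shXBP1 and 0.27 and 0.33 with shCtrl. The GAPDH values in T47D were 0.28 and 0.16 with shXBP1 and 0.33 and 0.24 with shCtrl. The part of RNA quality in any result was not tested.

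Changes are log2 fold changes of shXBP1 over shCtrl, with the standard error (SE) of limma's fit over all 8 arrays. A gene is said to have changed, risen or fallen where the p-value adjusted by Benjamini-Hochberg over all 19775 genes was under 0.05. With 2 arrays against 2, an exact permutation test cannot give a p under 0.333, which is why limma's model was relied on.

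RefSeq promoter windows of GRCh38.p14, running from 250 bases before to 50 bases after the start of the gene, were at hand for 45 of the 49 members. They were searched on both strands for 4 E2F words (TTTCCCGC, TTTCGCGC, TTTGCCGC and TTTGGCGC, with overlapping matches merged) and for CCAAT, the word bound by the factor NF-Y. An E2F word was present in 25 of the 45 windows (55.6%), against 703 of 15843 protein-coding promoters (4.4%). CCAAT was present in 24 of the 45 (53.3%), against 36.4% of all promoters. Members' windows had a median GC content of 64.7%, against 62.7% for all promoters. A match is a description of the letters and says nothing of binding in these cells. The 180 bases before the start are printed for 6 members that differ in these words, with the matches in capitals. RRM2 and CDC45, which fell in T47D, carry 3 and 4 copies of CCAAT and none of the 4 E2F words. MCM6, PCNA and E2F1, which also fell there, carry both kinds. DBF4, which rose in both lines, carries neither in these 180 bases. GINS3, the other member that rose in T47D and is not printed, has an E2F word across its start, from -5 to 3.
RRM2 promoter, chr2:10122559-10122738, plus strand: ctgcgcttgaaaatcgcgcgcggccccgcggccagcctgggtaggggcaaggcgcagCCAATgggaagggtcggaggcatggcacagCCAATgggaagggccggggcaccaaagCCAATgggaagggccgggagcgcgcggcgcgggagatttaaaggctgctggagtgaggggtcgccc
CDC45 promoter, chr22:19479740-19479919, plus strand: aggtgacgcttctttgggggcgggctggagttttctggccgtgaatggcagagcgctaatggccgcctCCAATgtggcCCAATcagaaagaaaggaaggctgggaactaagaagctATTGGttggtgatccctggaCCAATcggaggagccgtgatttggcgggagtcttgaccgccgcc
MCM6 promoter, chr2:135876444-135876623, minus strand: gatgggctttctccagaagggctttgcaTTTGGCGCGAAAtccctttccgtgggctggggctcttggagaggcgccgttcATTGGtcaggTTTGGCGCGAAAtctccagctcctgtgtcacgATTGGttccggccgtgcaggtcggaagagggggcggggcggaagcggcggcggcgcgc
PCNA promoter, chr20:5126623-5126802, minus strand: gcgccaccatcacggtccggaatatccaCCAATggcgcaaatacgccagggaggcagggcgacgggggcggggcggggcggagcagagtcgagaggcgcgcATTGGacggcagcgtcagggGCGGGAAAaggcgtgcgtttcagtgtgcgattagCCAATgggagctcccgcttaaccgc
E2F1 promoter, chr20:33686386-33686565, minus strand: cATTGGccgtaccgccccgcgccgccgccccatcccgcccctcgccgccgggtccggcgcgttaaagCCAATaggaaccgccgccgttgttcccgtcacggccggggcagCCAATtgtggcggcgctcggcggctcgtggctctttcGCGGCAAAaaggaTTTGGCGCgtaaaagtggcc
DBF4 promoter, chr7:87876313-87876492, plus strand: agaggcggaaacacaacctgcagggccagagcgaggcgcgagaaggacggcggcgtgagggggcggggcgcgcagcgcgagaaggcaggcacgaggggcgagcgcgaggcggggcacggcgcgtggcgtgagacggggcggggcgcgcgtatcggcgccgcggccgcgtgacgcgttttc
In T47D an E2F word was present in 19 of the 32 windows of members that fell (59.4%) and in 6 of the 13 windows of the other members (46.2%). CCAAT was present in 19 of these 32 (59.4%) and in 5 of these 13 (38.5%).

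Under XBP1 knockdown in T47D most of the replication genes fell. Of the 49 members 33 fell, 2 rose and 14 did not pass the test, where 13.5% of all genes tested fell and 15.5% rose, or 29.1% in all. The median change was -0.47, against -0.02 over all genes, and 43 of the 49 changes were negative. The deepest fall was that of RRM2, the small subunit of ribonucleotide reductase, to a level 4.02-fold lower than with shCtrl. On the 2 shXBP1 arrays the median difference of the members from the T47D shCtrl mean was -0.50 and -0.45, and 43 members lay below it on each. The groups did not overlap for 42 members that were lower and 6 that were higher, where 33.0% and 31.1% of all genes were separated in these directions. In bulk RNA, fewer cells in S phase and less of each mRNA per cell cannot be told apart.

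**Figure D1:**
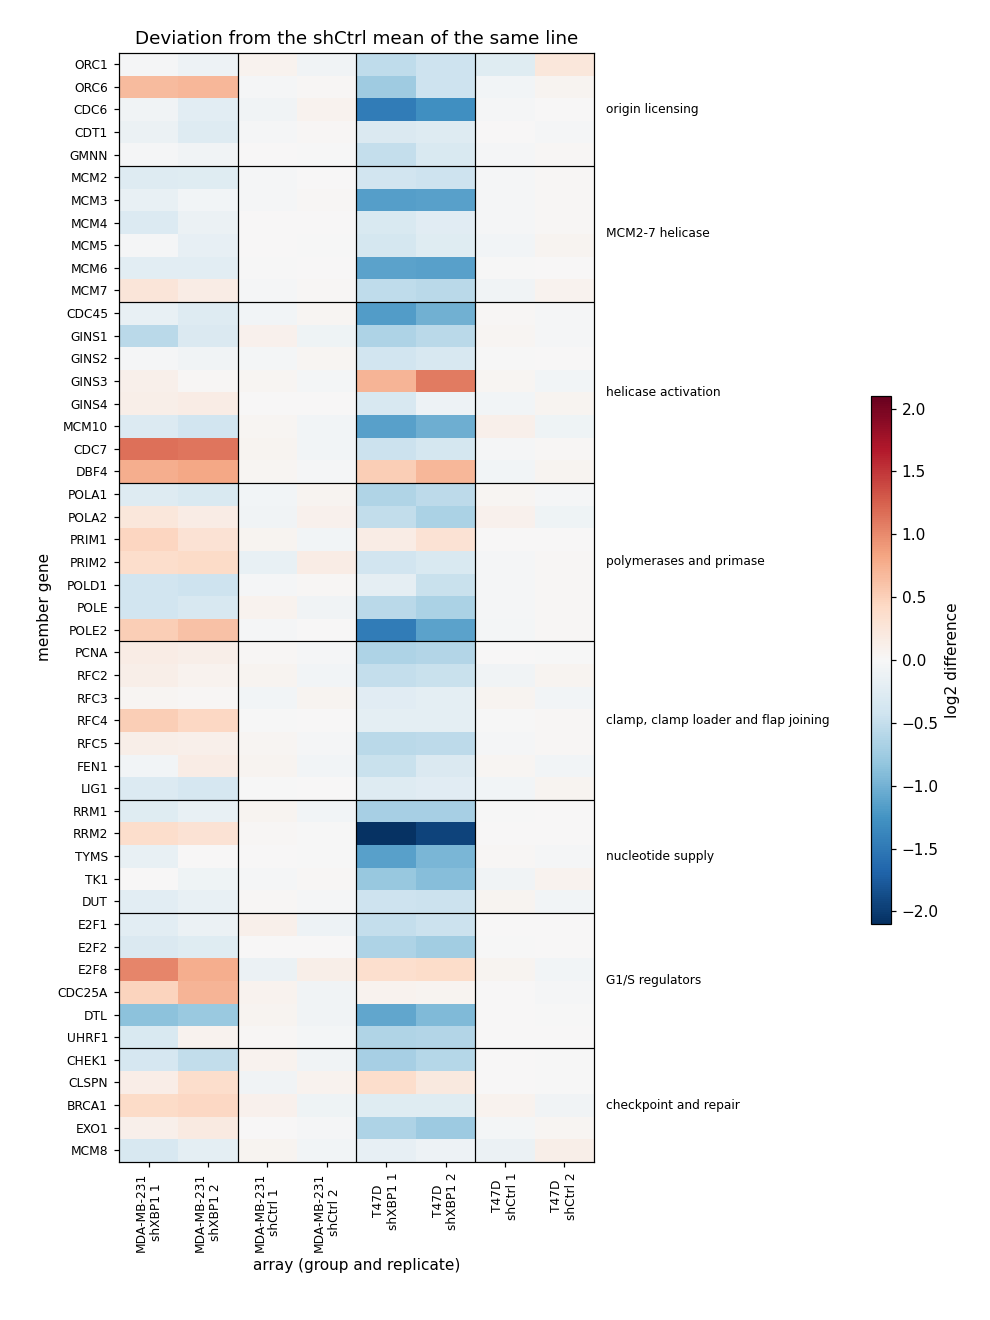
Each row is a member gene and each column an array, with the shXBP1 arrays left of the shCtrl arrays of the same line. Colour gives the log2 difference from the shCtrl mean of the same line, blue below and red above, and rows are grouped by role. Most rows are blue in the T47D shXBP1 columns, with RRM2 the deepest at -2.07 and -1.95, while the MDA-MB-231 shXBP1 columns mix both colours around medians of -0.02 and -0.06.

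Among the 5 genes of origin licensing, 4 fell in T47D and ORC1 did not pass. Of all genes tested 13.5% fell in T47D, the share to set beside this count and those of the other roles. CDC6, the ATPase that recruits the helicase to origins, read 7.66 and 7.85 on the shXBP1 arrays, against 9.11 and 9.14 on the shCtrl arrays. This was a change of -1.37 (SE 0.11, adjusted p = 0.000104), and the groups lay far apart. ORC6, a subunit of the origin recognition complex, read 8.30 and 8.60 with shXBP1 and 8.99 and 9.09 with shCtrl. It fell by 0.59 (SE 0.11, adjusted p = 0.00609), from a probe set whose suffix marks possible cross-hybridization. GMNN encodes geminin, the inhibitor of CDT1, and fell by 0.41 (SE 0.09, adjusted p = 0.0125), a change that did not pass without T47D shXBP1 replicate 1 or shCtrl replicate 2. CDT1 itself fell by 0.28, at an adjusted p of 0.0494 that was lost in 8 of 16 alternative settings. The CDT1 probe set used may also cross-hybridize, and the other gave -0.31 (adjusted p = 0.0562). ORC1, the large origin-binding subunit, read 6.63 and 6.73 with shXBP1 and 6.91 and 7.40 with shCtrl, a difference of -0.48 (adjusted p = 0.0537).

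Of the 6 subunits of the MCM2-7 helicase, 5 fell in T47D, and 2 of them stood apart in size. MCM3 read 9.97 and 9.98 with shXBP1, against 11.09 and 11.15 with shCtrl, a change of -1.15 (SE 0.09, adjusted p = 8.33e-05). MCM6 read 10.25 and 10.23 with shXBP1, against 11.36 and 11.37 with shCtrl, a change of -1.12 (SE 0.08, adjusted p = 7.22e-05). For both subunits the replicates agreed within 0.1 log2 units and the groups were more than 1 log2 unit apart. MCM7 fell by 0.56 (adjusted p = 0.00312), MCM2 by 0.42 (adjusted p = 0.00589) and MCM5 by 0.31 (adjusted p = 0.0479, lost in 10 of 16 settings). MCM4 differed by -0.28 (adjusted p = 0.0519). The subunits of this ring, which works as a single hexamer, thus differed in size of change between -0.28 and -1.15.

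The 8 genes of helicase activation held both of the members that rose in T47D. CDC45, the helicase cofactor, read 7.44 and 7.61 with shXBP1, against 8.64 and 8.60 with shCtrl, a change of -1.10 (SE 0.10, adjusted p = 0.000172). MCM10, which acts as the fork is activated, read 8.34 and 8.46 with shXBP1, against 9.58 and 9.39 with shCtrl, a change of -1.08 (SE 0.10, adjusted p = 0.000239). Neither gene's groups overlapped. The 4 subunits of the GINS complex did not move together: GINS1 fell by 0.61 (adjusted p = 0.00509) and GINS2 by 0.36 (adjusted p = 0.0136), GINS4 differed by -0.21 (adjusted p = 0.18), and GINS3 rose. The GINS2 call was lost without each T47D array in turn, and the mean over its 3 probe sets gave -0.05 (adjusted p = 0.766). GINS3 read 7.19 and 7.56 with shXBP1, against 6.51 and 6.42 with shCtrl, a change of 0.90 (SE 0.13, adjusted p = 0.00147). Its other probe set gave 1.32. DBF4, the regulatory subunit of the CDC7 kinase, read 9.80 and 9.97 with shXBP1, against 9.22 and 9.34 with shCtrl, a change of 0.60 (SE 0.10, adjusted p = 0.00266). The catalytic subunit CDC7 read 6.77 and 6.85 with shXBP1, against 7.20 and 7.24 with shCtrl. It fell by 0.41 (SE 0.09, adjusted p = 0.00906), so the kinase and its partner were called in opposite directions in T47D, though the CDC7 call was lost without T47D shXBP1 replicate 1 or shCtrl replicate 2.

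Among 7 polymerase and primase genes, 4 fell in T47D. POLE2, an accessory subunit of polymerase epsilon, read 7.84 and 8.19 with shXBP1, against 9.27 and 9.34 with shCtrl, a change of -1.29 (SE 0.12, adjusted p = 0.000226). Its catalytic partner POLE fell by 0.60 (adjusted p = 0.00238). POLA1, the catalytic subunit of polymerase alpha, fell by 0.60 (adjusted p = 0.00174). POLA2, its regulatory subunit, fell by 0.59 (adjusted p = 0.00513), but the mean over its 3 probe sets gave -0.08 (adjusted p = 0.684). The remaining 3 members did not pass: POLD1, catalytic subunit of polymerase delta, differed by -0.32, and the primase subunits PRIM2 and PRIM1 by -0.36 and 0.23.

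The sliding clamp, its loader and the flap-joining enzymes gave 4 falls among 7 genes in T47D, all of them moderate. PCNA, the clamp, read 11.96 and 12 with shXBP1, against 12.61 and 12.60 with shCtrl, a change of -0.63 (SE 0.08, adjusted p = 0.000902). The loader subunits RFC5 and RFC2 fell by 0.56 (adjusted p = 0.00167) and 0.47 (adjusted p = 0.00595). Other RFC5 probe sets gave -0.79 (adjusted p = 0.00229) and 0.26 (adjusted p = 0.0931). FEN1, the flap endonuclease, fell by 0.38 (adjusted p = 0.0305, lost without either array of T47D shXBP1 or of T47D shCtrl). RFC3 and RFC4 each differed by -0.21 and LIG1, the ligase that joins Okazaki fragments, by -0.26, none of which passed.

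Nucleotide supply was the role in which all members fell in T47D, 5 of 5, with a median of -0.85. RRM2, which limits the making of deoxynucleotides, read 10.16 and 10.29 with shXBP1, against 12.23 and 12.24 with shCtrl, a change of -2.01 (SE 0.09, adjusted p = 1.37e-05). Its other probe set gave -1.99. RRM1, the large subunit of the same enzyme, fell by 0.70 (SE 0.09, adjusted p = 0.000772). TYMS, thymidylate synthase, read 10.56 and 10.74 with shXBP1, against 11.72 and 11.67 with shCtrl, a change of -1.05 (SE 0.10, adjusted p = 0.000227). TK1, the thymidine kinase of dividing cells, fell by 0.85 (SE 0.10, adjusted p = 0.000515). DUT, which removes dUTP, fell by 0.44 (adjusted p = 0.00648) at a probe set that may cross-hybridize, and its 2 other probe sets gave -0.64 and -0.96.

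Of the 6 G1/S regulators, 4 fell in T47D. DTL, the substrate receptor of the ligase that destroys CDT1 in S phase, fell by 1.01 (SE 0.10, adjusted p = 0.000231), with 9.52 and 9.68 on the shXBP1 arrays and 10.62 and 10.60 on the shCtrl arrays. The activator E2F2 fell by 0.68 (adjusted p = 0.000685) and the activator E2F1 by 0.47 (adjusted p = 0.00852). UHRF1, which carries DNA methylation through replication, fell by 0.62 (adjusted p = 0.00843). Without T47D shXBP1 replicate 1, E2F1 and UHRF1 did not pass (adjusted p = 0.062 and 0.0527). The repressor E2F8 differed by 0.38 (adjusted p = 0.0594), above shCtrl on both arrays, and the phosphatase CDC25A by 0.07 (adjusted p = 0.715). Among the 5 checkpoint and repair genes, the exonuclease EXO1 fell by 0.71 (adjusted p = 0.000817) and the kinase CHEK1 by 0.64 (adjusted p = 0.00209). BRCA1 differed by -0.26, the helicase MCM8 by -0.14 and the checkpoint mediator CLSPN by 0.29, without passing.

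**Figure D2:**
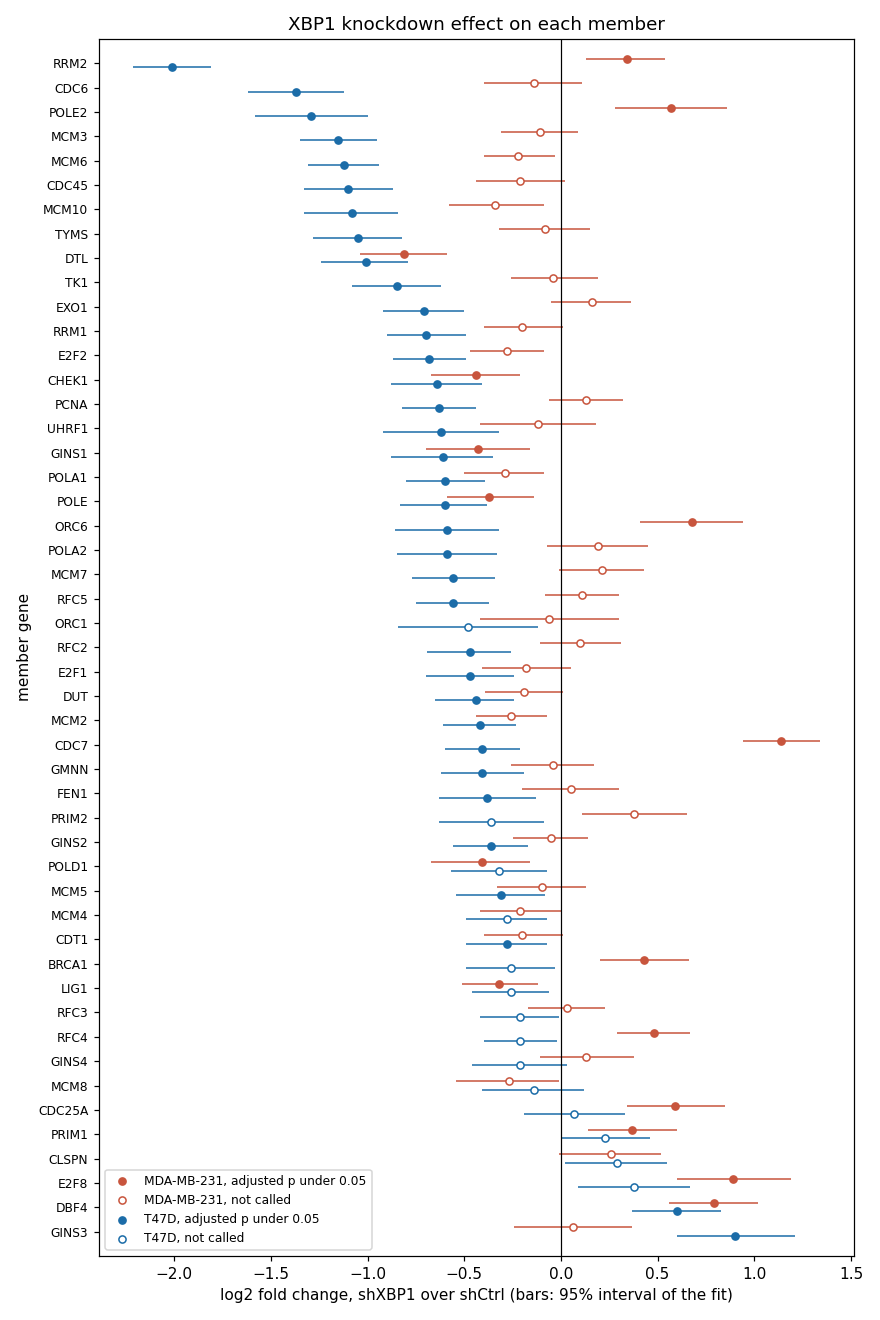
Points give each member's log2 fold change of shXBP1 over shCtrl in MDA-MB-231 (red, upper) and T47D (blue, lower), bars the 95% interval of the fit, and filled points an adjusted p under 0.05. Genes run from the deepest fall in T47D, RRM2 at -2.01, to the largest rise there, GINS3 at 0.90. The red points spread on both sides of 0, between -0.81 for DTL and 1.14 for CDC7.

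In MDA-MB-231 the same genes went in both directions. Of the 49 members 10 rose, 6 fell and 33 did not pass, where 10.6% of all genes tested rose and 6.68% fell. The median change was -0.05, against 0.03 over all genes. The groups did not overlap for 19 members that were higher and 21 that were lower, where 30.9% and 23.6% of all genes were so separated. CDC7 rose most, to a level 2.21-fold higher than with shCtrl, and DTL fell most, to a level 1.76-fold lower. Most of these changes were small: centring each array on its median, which moved the median of all genes by -0.10, gave 7 rises and 12 falls among the members, and 40.6% of all calls were then rises, against 61.3% as deposited. Without MDA-MB-231 shXBP1 replicate 1 the member counts were 6 rises and 2 falls, and without each other array the falls were between 1 and 3. Calls that held in all 16 settings were the rises of CDC7, E2F8, DBF4, ORC6 and RFC4 and the fall of DTL.

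The rises in MDA-MB-231 were led by the kinase that fires origins. CDC7 read 10.08 and 10.06 with shXBP1, against 8.98 and 8.88 with shCtrl, a change of 1.14 (SE 0.09, adjusted p = 0.000244). DBF4 read 10.46 and 10.50 with shXBP1, against 9.73 and 9.66 with shCtrl, a change of 0.79 (SE 0.10, adjusted p = 0.00175). Both subunits of the kinase were thus higher with shXBP1 in this line. ORC6 read 10.68 and 10.71 with shXBP1, against 9.99 and 10.05 with shCtrl, a change of 0.68 (SE 0.11, adjusted p = 0.00645). E2F8, which represses E2F targets late in S phase, read 7.83 and 7.56 with shXBP1, against 6.67 and 6.93 with shCtrl, a change of 0.89 (SE 0.13, adjusted p = 0.00307). None of these 4 genes had overlapping groups, and E2F8 had the widest gap between replicates.

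Smaller rises in MDA-MB-231 came from several roles. POLE2 read 9.33 and 9.44 with shXBP1, against 8.80 and 8.83 with shCtrl. It rose by 0.57 (SE 0.12, adjusted p = 0.0179), which no longer passed when any of the 4 arrays of this line was left out. RFC4, the clamp loader subunit, rose by 0.48 (SE 0.08, adjusted p = 0.0064). CDC25A, the phosphatase that activates the S-phase kinases, rose by 0.59 (SE 0.11, adjusted p = 0.00953) at its brightest probe set, but its 2 other probe sets gave -0.50 and 0.13 without passing. BRCA1 rose by 0.43 (adjusted p = 0.0241, lost in 8 of 16 settings) and PRIM1 by 0.37 (adjusted p = 0.0399, lost in 12). RRM2 read 12.76 and 12.70 with shXBP1, against 12.41 and 12.38 with shCtrl, a change of 0.34 (adjusted p = 0.0351). That last call was lost in 13 of 16 settings, and the other RRM2 probe set gave -0.17 (adjusted p = 0.461), so its direction in MDA-MB-231 was not settled by these arrays.

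Falls in MDA-MB-231 were fewer. DTL read 11.06 and 11.14 with shXBP1, against 11.98 and 11.85 with shCtrl, a change of -0.81 (SE 0.10, adjusted p = 0.00151). Its other probe set gave -0.72. CHEK1, the kinase of the replication checkpoint, read 10.17 and 10.01 with shXBP1, against 10.60 and 10.45 with shCtrl, a change of -0.44 (SE 0.10, adjusted p = 0.0216). GINS1 read 8.96 and 9.21 with shXBP1, against 9.61 and 9.43 with shCtrl, a change of -0.43 (SE 0.11, adjusted p = 0.0391). The polymerase subunits POLD1 and POLE fell by 0.41 (adjusted p = 0.0363) and 0.37 (adjusted p = 0.0374), and LIG1 by 0.32 (adjusted p = 0.041). LIG1 read 9.55 and 9.48 with shXBP1, against 9.82 and 9.83 with shCtrl. POLD1 read 9.20 and 9.16 with shXBP1, against 9.57 and 9.62 with shCtrl. POLE read 8.73 and 8.80 with shXBP1, against 9.21 and 9.05 with shCtrl. The groups of these 6 genes did not overlap, yet the calls of GINS1, POLD1, POLE and LIG1 were each lost in at least 8 of 16 settings, and that of CHEK1 in 3. At the brightest probe sets none of the 6 subunits of the MCM2-7 helicase passed in MDA-MB-231, with changes between -0.26 for MCM2 and 0.21 for MCM7, and 2 of them had an unadjusted p under 0.05. A dimmer MCM4 probe set, with a mean level of 8.78, gave -0.98 there (adjusted p = 0.00135).

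Set side by side, 25 members fell in T47D without passing in MDA-MB-231, where 9.89% of all genes did, and 4 fell in both lines, where 1.93% of all genes did. Those 4 were DTL, CHEK1, GINS1 and POLE. DBF4 rose in both, where 3.32% of all genes did. Another 4, ORC6, CDC7, POLE2 and RRM2, rose in MDA-MB-231 and fell in T47D, where 1.71% of all genes did, and 0 did the opposite, where 1.70% did. Of these 4, only ORC6 kept both calls in all 16 settings: the rise of RRM2 was unsettled, that of POLE2 was lost without any of 4 arrays, and the fall of CDC7 was lost in 2 settings. Across the 49 members the MDA-MB-231 changes correlated with the T47D changes at r = 0.31 (Spearman rho 0.34), against r = 0.10 over all genes. Genes are not independent replicates, and this is given as a description.

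The difference between the lines was tested directly, subtracting the T47D effect from that in MDA-MB-231. It was positive and passed for 23 of the 49 members, where 13.0% of all genes tested did, and negative for GINS3 alone, where 11.8% of all genes did. The median difference over the members was 0.43, against 0.05 over all genes. RRM2 had the largest, 2.34 (SE 0.12, adjusted p = 7.87e-05), and its other probe set gave 1.82 (adjusted p = 0.000541), so its difference does not rest on the unsettled rise in MDA-MB-231. POLE2 differed by 1.86 (SE 0.17, adjusted p = 0.000427), with an effect of 0.57 in MDA-MB-231 and -1.29 in T47D. CDC7 differed by 1.55 (SE 0.12, adjusted p = 0.000254), with 1.14 in MDA-MB-231 and -0.41 in T47D. As ratios of the 2 effects these differences were 5.08-fold for RRM2, 3.63-fold for POLE2 and 2.92-fold for CDC7.

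Among the members ORC6, CDC6 and MCM3 followed CDC7 in size. ORC6 differed by 1.27 (SE 0.16, adjusted p = 0.00139), with effects of 0.68 in MDA-MB-231 and -0.59 in T47D. CDC6 differed by 1.23 (SE 0.15, adjusted p = 0.00124), with -0.14 in MDA-MB-231 and -1.37 in T47D. MCM3 differed by 1.03 (SE 0.12, adjusted p = 0.000988), with -0.11 in MDA-MB-231 and -1.15 in T47D. On the MDA-MB-231 arrays CDC6 read 10.59 and 10.44 with shXBP1 and 10.59 and 10.73 with shCtrl, and MCM3 read 11.49 and 11.60 with shXBP1 and 11.63 and 11.68 with shCtrl. GINS3 went the other way at -0.84 (SE 0.18, adjusted p = 0.0134), with 0.06 in MDA-MB-231 and 0.90 in T47D. For MDA-MB-231 its shXBP1 arrays read 9.86 and 9.77 and its shCtrl arrays 9.79 and 9.71.

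By role, the difference passed for 4 of 5 nucleotide supply genes, 4 of 7 clamp and flap genes, 3 of 6 helicase subunits, 3 of 7 polymerase genes, 2 of 5 licensing genes, 2 of 6 G1/S regulators and 2 of 5 checkpoint genes. In helicase activation it passed for 4 of 8, counting GINS3. Of all genes tested 24.8% passed in either direction, and with so few genes per role these counts are given as a description. Both G1/S regulators, E2F2 and CDC25A, lost that call in most settings, 13 and 10 of 15. For 25 members no difference between the lines was shown, which does not mean that they responded alike. DTL had a difference of 0.20 with a 95% interval between -0.12 and 0.52, and CHEK1 0.21 with an interval between -0.12 and 0.53. For DBF4 the difference was 0.19, with an interval between -0.13 and 0.51. The intervals of POLD1, between -0.45 and 0.26, and LIG1, between -0.34 and 0.22, also spanned 0.

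**Figure D3:**
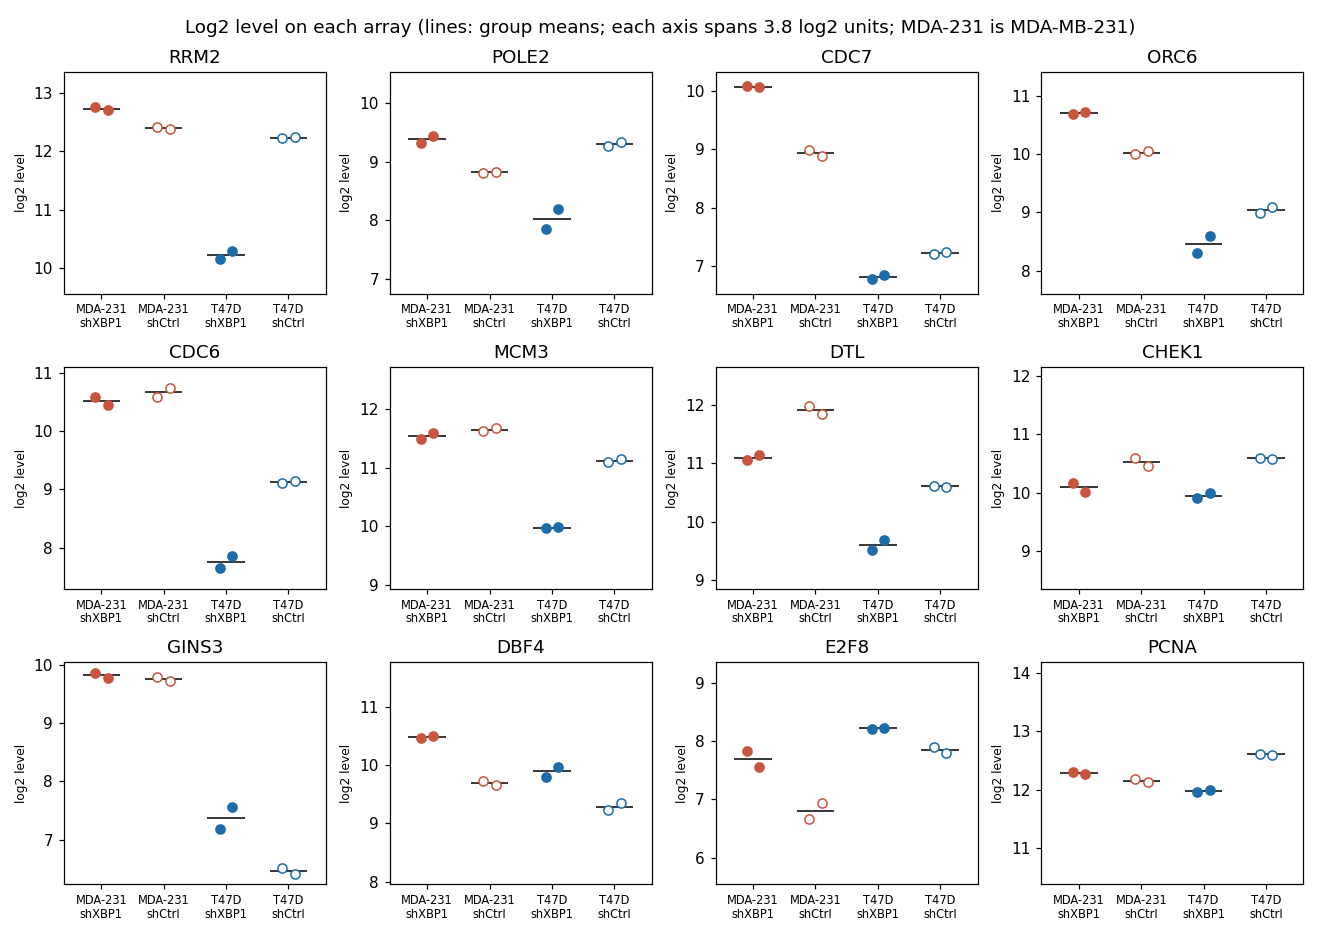
Log2 level of 12 members on each array, with shXBP1 (filled) left of shCtrl (open) in each line, MDA-MB-231 in red and T47D in blue, and short lines for group means. RRM2 is at 10.16 and 10.29 on the T47D shXBP1 arrays and above 12 on the other 6, CDC7 and ORC6 move apart in the 2 lines, DTL and CHEK1 are lower with shXBP1 in both, and DBF4 is higher in both.

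Without knockdown the 2 lines already differed. Between the shCtrl groups 34 members were higher in MDA-MB-231 than in T47D and 6 were lower, where 23.7% of all genes tested were higher and 25.2% lower, and the median difference was 0.70. The groups did not overlap for 39 members that were higher and 7 that were lower, where 35.6% and 35.4% of all genes were so separated. GINS3 differed most, with 9.79 and 9.71 in MDA-MB-231 against 6.51 and 6.42 in T47D, a difference of 3.28 (SE 0.13, adjusted p = 4.36e-07). CDC25A read 9.60 and 9.44 in MDA-MB-231 against 7.21 and 7.18 in T47D, a difference of 2.33 (SE 0.11, adjusted p = 1.08e-06). Both genes were far apart between the lines. ORC1 read 9.53 and 9.38 in MDA-MB-231 against 6.91 and 7.40 in T47D, a difference of 2.30 (SE 0.16, adjusted p = 7.14e-06). POLD1 read 9.57 and 9.62 in MDA-MB-231 against 7.40 and 7.46 in T47D, a difference of 2.17 (SE 0.11, adjusted p = 1.41e-06). All 5 licensing genes and all 6 MCM2-7 genes were higher in MDA-MB-231.

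The members lower in MDA-MB-231 shCtrl than in T47D shCtrl were E2F8, RFC4, GINS1, PRIM1, POLE2 and PCNA. E2F8 read 6.67 and 6.93 in MDA-MB-231 against 7.89 and 7.79 in T47D, a difference of -1.03 (SE 0.13, adjusted p = 0.000216). RFC4 read 10.76 and 10.78 in MDA-MB-231 against 11.72 and 11.75 in T47D, a difference of -0.97 (SE 0.08, adjusted p = 2.35e-05). For all of these the groups lay apart. GINS1 read 9.61 and 9.43 in MDA-MB-231 against 10.15 and 10.08 in T47D, a difference of -0.59 (adjusted p = 0.00292). PRIM1 read 9.80 and 9.70 in MDA-MB-231 against 10.30 and 10.30 in T47D, a difference of -0.55 (adjusted p = 0.00203). RRM2 read 12.41 and 12.38 in MDA-MB-231 and 12.23 and 12.24 in T47D with shCtrl, a difference of 0.16 that did not pass (adjusted p = 0.178, 95% interval between -0.04 and 0.36). Centring each array on its median moved the median of all genes by 0.11 in this comparison and gave 39 higher and 6 lower members.

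Between the shXBP1 groups 42 members were higher in MDA-MB-231 than in T47D and 4 were lower, where 25.9% and 25.0% of all genes were (50.8% in all), and the median difference was 1.28. CDC7 then differed by 3.26 (SE 0.09, adjusted p = 6.6e-08) and RRM2 by 2.50 (SE 0.09, adjusted p = 2.15e-07), or 5.67-fold. POLE2 and PCNA, lower in MDA-MB-231 with shCtrl, were higher there with shXBP1, by 1.37 (adjusted p = 3.26e-05) and 0.31 (adjusted p = 0.0131). This comparison shares its arrays with the knockdown comparisons and adds no separate evidence. In MDA-MB-231 the members' change correlated with their shCtrl level at r = -0.36, and in T47D at r = -0.42, where level and change share the shCtrl arrays.

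**Figure D4:**
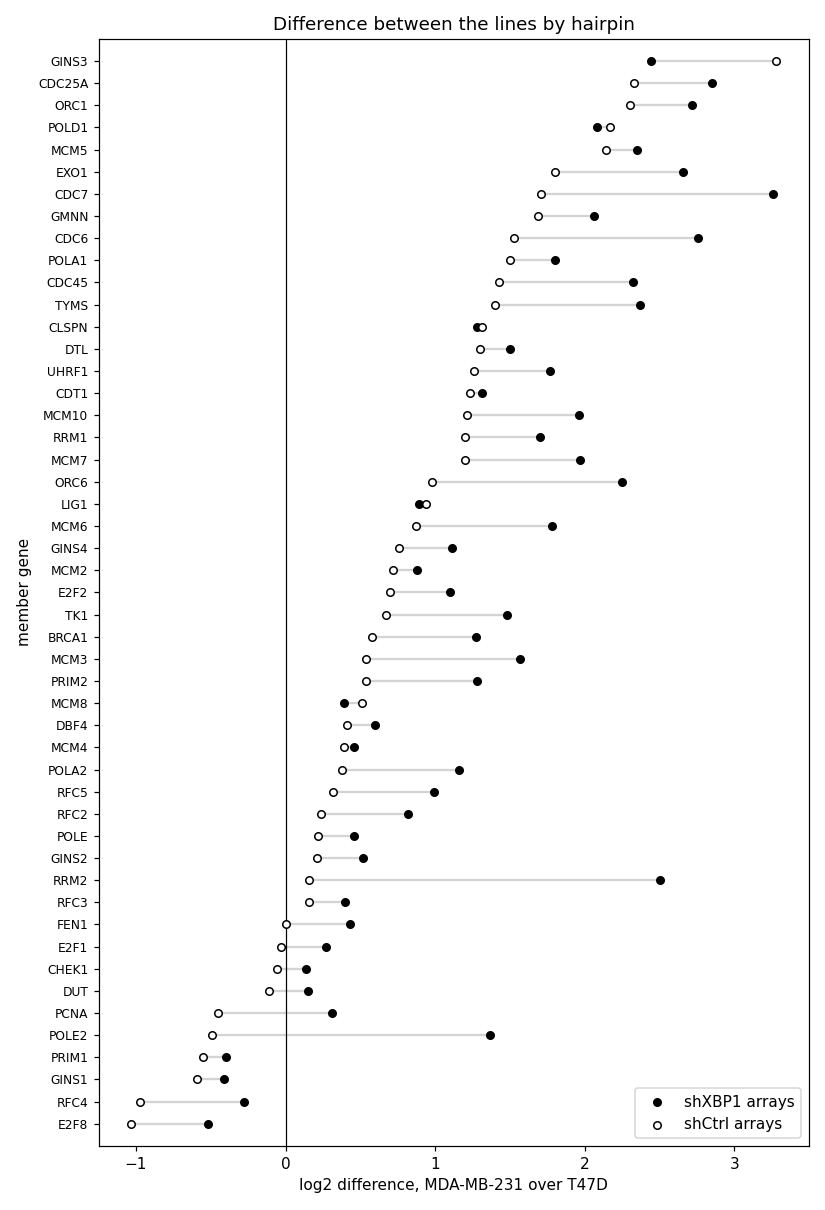
Log2 difference of MDA-MB-231 over T47D for each member, on the shXBP1 arrays (filled) and on the shCtrl arrays (open), joined by a grey line. Filled points lie right of open ones for most genes, as for RRM2 at 2.50 with shXBP1 and 0.16 with shCtrl, and GINS3 is the clearest exception at 2.44 with shXBP1 and 3.28 with shCtrl.

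Several members had more than 1 probe set: 28 of the 49, with 46 further sets. In T47D, 27 of the 30 further sets of called members had the sign of the set used, 17 of them passed in that direction when every probe set was tested, and 0 passed in the opposite one. In MDA-MB-231 the figures were 6 of 8, with 2 passing and 0 opposite. For the difference between the lines they were 15 of 21, with 9 passing and 0 opposite. Such counts were not made between the shCtrl groups. RFC5 there gave 0.32 at the set used, and 0.44 (adjusted p = 0.0178) and -0.94 (adjusted p = 7.29e-05) at its others. For the difference between the lines its others gave 0.97 (adjusted p = 0.00588) and -0.37 (adjusted p = 0.0981), against 0.67. The 5 MCM4 probe sets disagreed in size and, in MDA-MB-231, in sign. In MDA-MB-231 the set at -0.98 alone passed, and the dimmest, with a mean level of 6.55, gave 0.42 (adjusted p = 0.139). In T47D 3 sets fell, by 0.36, 0.55 and 0.46, and in neither line did the brightest pass. For the difference between the lines 1 set gave 0.52 (adjusted p = 0.038) and another -0.51 (adjusted p = 0.0667). In MDA-MB-231 the other CHEK1 sets gave -0.42 (adjusted p = 0.028), -0.44 (adjusted p = 0.0835) and -0.47 (adjusted p = 0.248). The same sets gave -0.90 (adjusted p = 0.000518), -0.15 (adjusted p = 0.537) and -0.26 (adjusted p = 0.524) in T47D. Between the shCtrl groups they gave 0.01 (adjusted p = 0.967), -0.72 (adjusted p = 0.00366) and -2.16 (adjusted p = 0.000111), against -0.06 at the set used.

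**Figure D5:**
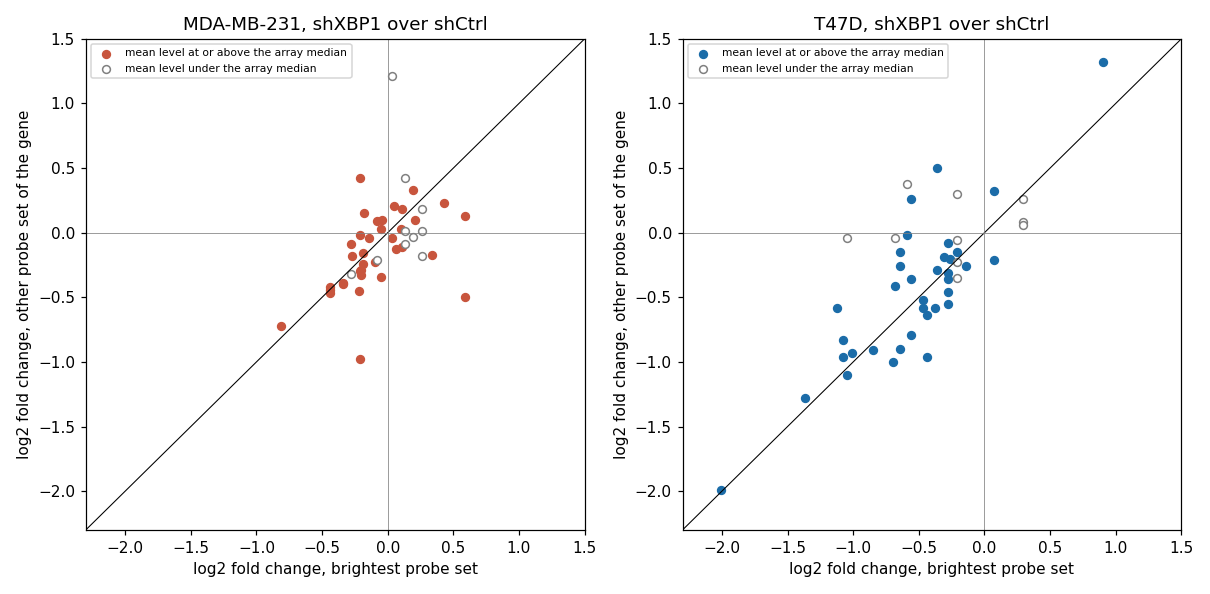
Log2 fold change of shXBP1 over shCtrl at a member's brightest probe set (horizontal) and at each of its other probe sets (vertical), for MDA-MB-231 (left) and T47D (right), with the diagonal of equality. Open points are sets with a mean level under 5.9. RRM2 lies at -2.01 and -1.99 in T47D and at 0.34 and -0.17 in MDA-MB-231.

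Other genes of the same processes, from lists of genes that are no members, were read in the same fits. Of 30 other origin and fork genes, 3 rose and 0 fell in MDA-MB-231, and 4 rose and 15 fell in T47D. Set against the shares of all genes given above, which were 10.6% rising and 6.68% falling in MDA-MB-231 and 15.5% rising and 13.5% falling in T47D, the falls in T47D were 50.0% of this list and the rises 10.0% and 13.3%. DSCC1, a subunit of the alternative clamp loader, fell by 0.93 in T47D (adjusted p = 0.000724), and ORC5 by 0.87 (adjusted p = 0.000438), while the origin subunit ORC2 rose by 0.50 (adjusted p = 0.00702). Of 21 measured genes of nucleotide synthesis and turnover, 7 rose and 0 fell in MDA-MB-231, and 0 rose and 6 fell in T47D, or 33.3% rising in MDA-MB-231 and 28.6% falling in T47D. SAMHD1, which degrades deoxynucleotides, rose by 1.25 in MDA-MB-231 (adjusted p = 0.000505) and fell by 0.69 in T47D (adjusted p = 0.00289), a difference of 1.94 (adjusted p = 0.000302). Its brightest probe set, of 6, has a suffix that marks possible cross-hybridization, and the others were not compared. CTPS1, the CTP synthase, fell by 1.22 in T47D (adjusted p = 0.000124). Of 11 measured repair genes under E2F control, 0 rose and 1 fell in MDA-MB-231, and 1 rose and 5 fell in T47D (45.5% falling), with FANCI at -1.12 (adjusted p = 0.000395).

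Genes of mitosis, the last part of the cell cycle, were mostly lower in T47D as well. Of 20, 5 rose and 1 fell in MDA-MB-231, with a median of 0.28, and 0 rose and 16 fell in T47D, with a median of -0.65. The shares were 25.0% rising in MDA-MB-231 and 80.0% falling in T47D, where 10.6% and 13.5% of all genes did. The difference between the lines passed in the positive direction for 15 of the 20, with a median of 1.01. It did so for 23 of the 49 replication members and 13.0% of all genes. Leukocyte markers gave 0 calls among 6 measured genes in both knockdown comparisons, with an unadjusted p under 0.05 for 2 in MDA-MB-231 and 0 in T47D. Of 8 fibroblast and endothelial markers, COL1A1 alone rose in T47D. Of 10 luminal markers of the lines themselves, 3 rose and 0 fell in MDA-MB-231, where 10.6% and 6.68% of all genes did. In T47D 1 rose and 4 fell, where 15.5% and 13.5% of all genes did. There 4 of the 10 changes were positive, with a median of -0.16. The difference between the lines was positive and passed for 5 of the 10, where 13.0% of all genes did, with a median of 0.58. TFF1, a secreted protein under oestrogen control, rose by 1.3 in MDA-MB-231 (adjusted p = 0.000267) and fell by 1.60 in T47D (adjusted p = 4.69e-05), and the keratin KRT8 rose by 0.49 (adjusted p = 0.0117) and fell by 1.33 (adjusted p = 7.43e-05) in the same lines. Of 10 mesenchymal markers, 2 rose and 1 fell in MDA-MB-231 (20% and 10%), and 1 rose and 2 fell in T47D (10% and 20%). The part of these markers in the replication results was not tested.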

How the data were processed

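Gene expression was measured on 8 one-colour Affymetrix arrays of MDA-MB-231 and T47D cells with shXBP1 or shCtrl, grouped by their labels. The authors deposited log2 expression values per probe set, made with RMA and affy 1.30.0 per the submitters' processing notes. No source used here says which arrays shared a normalization. The deposited log2 values were used as they stood, ran from 2.75 to 15.6, and correlated at 0.996 to 0.998 between replicates. No detection calls come with them, and changes of dim probes are compressed by RMA.

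Of 54675 probe sets, 41091 had 1 gene symbol in the annotation supplied, 1801 had several and were not used, and the rest were unnamed here or were controls. The brightest single-symbol set stood for each of 19775 genes. Tests were run with limma 3.58.1 in R 4.3.3 on 4 group means with a shared spread (4 residual degrees of freedom, 7.61 after moderation), two-sided, with Benjamini-Hochberg adjustment over all genes. Precision is limited by the number of arrays, with a median SE of 0.119 for a knockdown effect and 0.168 for the difference between the lines. The fit was tested on simulated data. Of 67 planted changes of 0.5 it recovered 17.9% in T47D and 19.4% in MDA-MB-231, so small changes can be missed. Far more genes were called on the arrays than were planted, so these shares need not hold there.

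Members and lists were chosen with earlier results of these data known, and the lists are not independent evidence. Values on every array are given for called members without overlap between groups, up to the 8 largest falls and 4 largest rises per knockdown comparison, the 6 largest each way for the difference of the effects (no overlap in at least 1 line) and the 4 largest each way between the shCtrl groups. Array values of PCNA, and of DTL and ORC1 in T47D, were added after their values were seen, and the other members are described by role. Alternatives left out each array, added a replicate block, and changed the variance model, the filter, the probe set rule, the normalization and the arrays in the fit. Same-numbered arrays showed no shared deviation: the correlation of deviations between them was -0.07 in MDA-MB-231 and 0.00 in T47D. The labels do not say whether same-numbered replicates were handled together, and this correlation cannot show it.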

Additional observations from a re-analysis of the deposited data

Results flagged for a closer look

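The effect of XBP1 knockdown differed between the lines for 24 of the 49 members by limma's test of the difference itself (MDA-MB-231 effect minus T47D effect, log2, adjusted p under 0.05), where 24.8% of all genes tested did in either direction. In nucleotide supply the differences were 2.34 for RRM2, 0.97 for TYMS, 0.81 for TK1 and 0.50 for RRM1. In licensing and the helicase ring they were 1.27 for ORC6, 1.23 for CDC6, 1.03 for MCM3, 0.91 for MCM6 and 0.76 for MCM7. In helicase activation they were 1.55 for CDC7, 0.88 for CDC45, 0.75 for MCM10 and, in the opposite direction, -0.84 for GINS3. Polymerase and primase genes gave 1.86 for POLE2, 0.78 for POLA2 and 0.74 for PRIM2. The clamp and its loader gave 0.76 for PCNA, 0.69 for RFC4, 0.67 for RFC5 and 0.58 for RFC2. Regulators and repair genes gave 0.86 for EXO1, 0.68 for BRCA1, 0.52 for CDC25A and 0.40 for E2F2. Of these 24 calls, 17 held in all 15 alternative settings, and those of MCM6, POLA2, PRIM2, RFC2, RRM1, E2F2 and CDC25A did not. E2F2 lost its call in 13 of the 15 settings and CDC25A in 10, and neither was called when every probe set was tested.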

How the results depend on the processing

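Of the 35 members called in T47D, 26 kept their call in all 16 settings, as did 6 of the 16 called in MDA-MB-231 and 17 of the 24 called for the difference between the lines (15 settings). No called member changed sign in any setting. The 6 falls in MDA-MB-231 numbered 13 with the trended, robust variance, 12 with arrays centred, 11 with dim genes left out, 2 with the replicate block, 1 with only the arrays of this line, and 1 to 3 with an array left out. The 10 rises there numbered 6 with only the arrays of this line, 7 with the replicate block, and 6 to 8 with an array left out. The 2 rises in T47D numbered 4 with the trended, robust variance. The 4 members lower in MDA-MB-231 shXBP1 than in T47D shXBP1 numbered 1 to 4 with an array left out. The 33 falls in T47D numbered 31 with the replicate block, 37 with quantile normalization again and 39 with arrays centred, each with 2 rises. For the difference between the lines the replicate block gave 20 positive and 1 negative members. All genes changed in MDA-MB-231 numbered 3410, against 2152 without MDA-MB-231 shXBP1 replicate 1, 2063 without MDA-MB-231 shCtrl replicate 1 and 1897 with only this line's arrays. Tested over every probe set, the calls were 6504 in MDA-MB-231, 9969 in T47D, 8689 for the difference, 18253 between the shCtrl groups and 18886 between the shXBP1 groups, where more features were tested. The cause of these other changes was not tested. Folds against dim levels are understated.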

Other observations

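Of 10 genes of the E2F and RB family outside the members, 1 rose and 2 fell in MDA-MB-231, where 10.6% and 6.68% of all genes did, and 4 rose and 1 fell in T47D, where 15.5% and 13.5% did. The difference between the lines passed for 5 of the 10, with a median of 0.04. It was positive for 1 and negative for 4, where 13.0% and 11.8% of all genes passed in these directions. E2F6, a repressor that acts without RB, rose by 1.96 in T47D (adjusted p = 3.2e-05), and its effect differed between the lines by -1.62 (adjusted p = 0.000467, MDA-MB-231 minus T47D). The activator E2F3 fell by 0.49 in MDA-MB-231 (adjusted p = 0.0242) and rose by 1.59 in T47D (adjusted p = 7.27e-05), a difference of -2.08 (adjusted p = 0.000243). In T47D the activators E2F1 and E2F2 fell, as described above, so the 3 activators did not move together there. RBL1, the pocket protein p107, fell in both lines, by 0.53 in MDA-MB-231 (adjusted p = 0.0232) and by 0.72 in T47D (adjusted p = 0.00335). RB1 rose by 0.62 in MDA-MB-231 (adjusted p = 0.0104).

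Among the mitosis genes TOP2A, the topoisomerase that untangles sister chromatids, had the deepest fall in both lines, at -1.72 in MDA-MB-231 (adjusted p = 0.000206) and -3.10 in T47D (adjusted p = 9.16e-06). AURKA, a spindle kinase, rose by 0.72 in MDA-MB-231 (adjusted p = 0.00259) and fell by 0.55 in T47D (adjusted p = 0.00408). NDC80, of the kinetochore, rose by 0.64 in MDA-MB-231 (adjusted p = 0.00415) and fell by 1.00 in T47D (adjusted p = 0.000251), a difference of 1.65 (adjusted p = 0.000323). These genes were read at their brightest probe set and are given as values.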
